A study of Homo sapiens with 6 samples.

Results

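CTXR and CabR are the cabazitaxel-resistant end points of 2 prostate cancer lineages, and the genes described here are those whose difference between them was not the difference already present between their parents, DU145 and C4-2B. For each gene the end-point gap was the log2 ratio of (FPKM + 1) in CTXR over CabR, and the parental gap was the same ratio in DU145 over C4-2B. FPKM is a measure of fragments that corrects for how long a transcript is and how many fragments a library holds. A gene was a member when it reached 1 FPKM in CTXR or CabR and its end-point gap differed from its parental gap by 1 or more. Of 60658 listed genes 15846 were measured in this sense, and 3647 of them were members, which is 23.0% of measured genes. Of the members 2765 were protein-coding, out of 12883 measured protein-coding genes. The values that chose the members are given as a description, since the rule used them.

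The series holds 6 human prostate cancer cell lines with 1 messenger RNA library each. CTXR was derived from DTXR and is kept under 5 nM cabazitaxel, and CabR was derived from TaxR and is kept under the same dose. DU145, the untreated parent of CTXR, is an androgen-independent prostate carcinoma line. C4-2B, the untreated parent of CabR, belongs to the LNCaP family, expresses the androgen receptor and grows in castrated hosts. DTXR and TaxR are the docetaxel-resistant lines selected from DU145 and C4-2B under 5 nM docetaxel. TaxR is titled as old with no further explanation. The cells had no drug before harvest. Each line has 1 library, so differences are described by size, with no replicates behind them and no p-value. The depth of the libraries is unknown. In such bulk RNA fewer cells expressing a gene and less of its RNA in each cell cannot be told apart.

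Docetaxel and cabazitaxel are taxanes, which bind tubulin, stabilise microtubules and stop cells in mitosis. A common route to taxane resistance in cultured cells is the efflux pump P-glycoprotein, encoded by ABCB1. Luminal prostate cells and androgen receptor-positive cancers make kallikreins and other androgen receptor targets, whereas DU145 cells lack that programme and express genes of an inflammatory, mesenchymal-leaning epithelium. The gap between the end points therefore starts from a large lineage difference, and the question here is which parts of it appeared, went or turned round between parent and end point.

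The lineage labels held at the end points. The 10 markers of the C4-2B side, which include KLK3 and SLC45A3, summed to 9.22 FPKM in CTXR and 2483 FPKM in CabR, against 14 FPKM in DU145 and 5320 FPKM in C4-2B. The 12 markers of the DU145 side summed to 3957 FPKM in CTXR and 47.2 FPKM in CabR, against 2998 FPKM in DU145 and 69.2 FPKM in C4-2B. In TaxR that sum was 101 FPKM with 10 of the 12 markers at 1 FPKM or more, where CabR had 3 of 12 and C4-2B had 2 of 12. Leukocyte and endothelial markers, 8 genes, summed to 0.377 FPKM in CTXR and 0.557 FPKM in CabR. The share of all FPKM on mitochondrial genes was 35.3% in CTXR and 26.5% in CabR, against 40.7% in DU145 and 17.9% in C4-2B, and its part in the results was not tested beyond rescaling the libraries without those genes.

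The gaps of both pairs were counted over the same genes, chosen for being expressed at an end point, so genes expressed in the parents alone are not among them and the counts of the pairs are not compared. CTXR was higher than CabR by 1 or more in log2 in 3485 measured genes (22.0%) and lower in 3081 (19.4%). DU145 was higher than C4-2B in 2657 of the same genes (16.8%) and lower in 3012 (19.0%). A gap in the same direction in both pairs was found in 1921 genes on the DU145 side and 1869 on the C4-2B side. Across the 15846 genes, which are not independent replicates, the end-point and parental gaps had a Pearson correlation of 0.783 and a Spearman correlation of 0.729. The change of the gap ran toward CTXR in 2229 genes (14.1%) and toward CabR in 1418 genes (8.95%). The balance of the directions depends on the scaling. With median-ratio size factors the share toward CTXR was 61.2%, and with equal upper quartiles it was 56.8%. After rescaling all 4 libraries to an equal sum of non-mitochondrial FPKM, 1822 genes moved toward CTXR and 1927 toward CabR, and the share toward CTXR was 48.6%, against 61.1% as deposited. That scaling moved the median gap change of all genes to -0.09, against 0.08 as deposited.

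**Figure D1:**
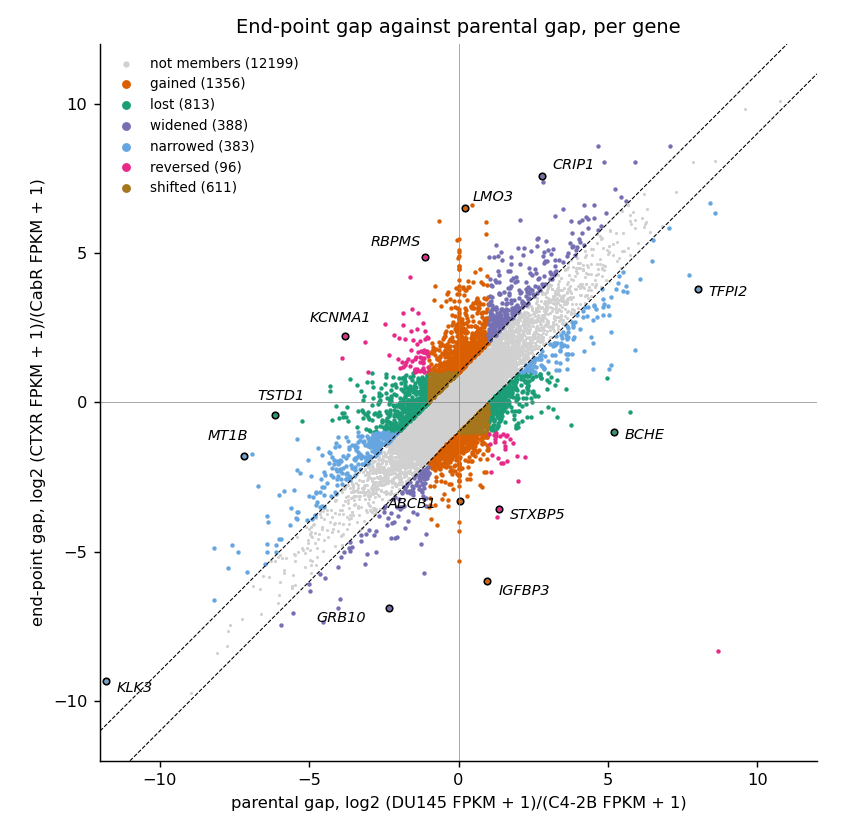
End-point gap, log2 ratio of (FPKM + 1) in CTXR over CabR, against the parental gap, DU145 over C4-2B, for 15846 measured genes. Dashed lines mark a gap change of 1, and points outside them are the 3647 members, coloured by class, with 13 named genes circled.

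Members were sorted by where their gap stood before and after. A gap was gained when it reached 1 only at the end points, lost when it reached 1 only in the parents, reversed when both reached 1 with opposite signs, widened or narrowed when both reached 1 with the same sign, and shifted when neither did. On the DU145 side 838 genes gained a gap, and on the C4-2B side 518 did. A DU145-side gap was lost in 310 genes and a C4-2B-side gap in 503. The gap widened in 277 genes on the DU145 side and 111 on the C4-2B side, and narrowed in 130 and 253 genes on those sides. It turned to the DU145 side in 67 genes and to the C4-2B side in 29, and 611 members were shifted. A gap was thus gained more often on the DU145 side, and lost or narrowed more often on the C4-2B side, in the deposited scale. After the rescaling without mitochondrial genes the order of the lost gaps turned round, with 517 on the DU145 side and 347 on the C4-2B side, while 738 and 616 gaps were gained on those sides. With a minimum of 1 FPKM in any of the 4 lines, which admits genes expressed in the parents alone, 512 and 749 gaps were lost on those sides.

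Either subline can carry a gap change. CTXR differed from DU145 by 1 or more in 1299 genes upward (8.20%) and 715 downward (4.51%). CabR differed from C4-2B in 466 genes upward (2.94%) and 775 downward (4.89%). Of the 3647 members, 1448 (39.7%) moved by 1 or more in CTXR alone in the direction of the gap change, 775 (21.3%) in CabR alone and 134 (3.67%) in both. In 1290 members (35.4%) neither subline moved that far, and the change was the sum of smaller opposite moves. Of the 838 gaps gained on the DU145 side 521 came with a move of CTXR alone and 100 with a move of CabR alone. Of the 253 gaps narrowed on the C4-2B side 143 came with a move of CabR alone and 38 with a move of CTXR alone. Low values weigh in the count, since 684 members (18.8%) were listed at 0 in 1 or more of the 4 lines, against 1618 (10.2%) of measured genes.

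**Figure D2:**
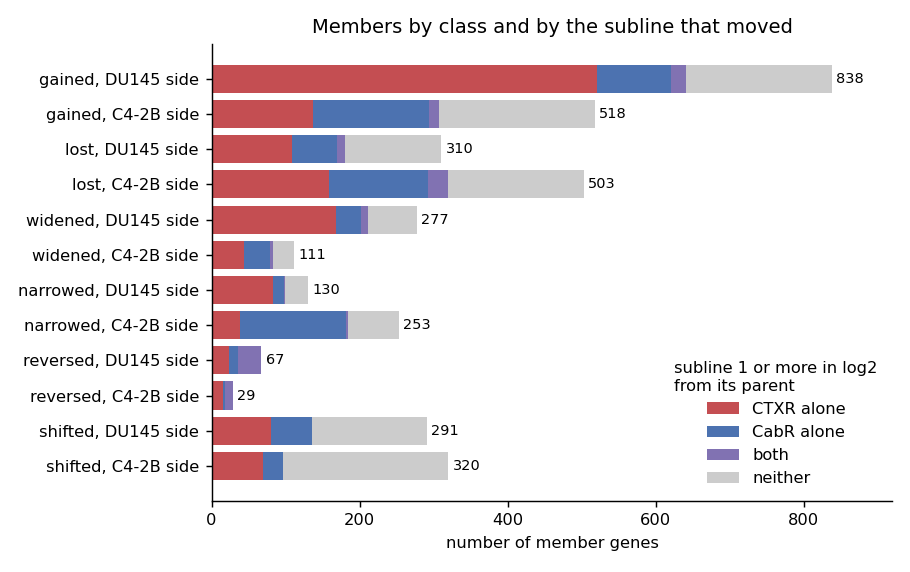
Number of member genes in each class and side, split by whether CTXR, CabR, both or neither lay 1 or more in log2 from its own parent in the direction of the gap change. CTXR alone fills most of the bar of gaps gained on the DU145 side, and CabR alone most of the bar of gaps narrowed on the C4-2B side.

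The gaps gained on the DU145 side with the largest changes were of genes under 1 FPKM in both parents and in CabR. LMO3, a LIM-only transcription cofactor (ENSG00000048540, chromosome 12, 16548373 to 16610594, minus strand, GRCh38), had 89.6 FPKM in CTXR and was listed at 0 in CabR, against 0.168 FPKM in DU145 and 0 in C4-2B. The collagenase gene MMP1 had 95.6 FPKM in CTXR and was listed at 0 in CabR, against 0.367 FPKM in DU145 and 0 in C4-2B. Neither was above 1 FPKM in a parent. HAPLN1, whose product links hyaluronan to proteoglycans, had 50.1 FPKM in CTXR and 0.180 FPKM in CabR, against 0 in DU145 and 0.0269 FPKM in C4-2B. NTN4, a netrin of basement membranes, had 65.5 FPKM in CTXR and 0.0168 FPKM in CabR, against 0.906 FPKM in DU145 and 0 in C4-2B. No gap change is printed for a gene listed at 0 in 1 of the 4 lines, since an exact 0 in a table without counts can be a failed estimate. GARIN2 and SUCNR1, the succinate receptor, completed the 6, with 32.4 and 29.7 FPKM in CTXR and at most 0.0281 FPKM in CabR. Of these 6 genes SUCNR1 alone stayed under 1 FPKM in DTXR, at 0.186 FPKM, and the other 5 had 5.64 to 36.7 FPKM there.

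The gaps gained on the C4-2B side were led by IGFBP3, which encodes the main carrier of insulin-like growth factors in blood (ENSG00000146674, chromosome 7, 45912245 to 45921874, minus strand, GRCh38). It had 0.863 FPKM in CTXR and 116 FPKM in CabR, against 26.4 FPKM in DU145 and 13 FPKM in C4-2B, a gap change of -6.94. Both sublines had moved, down in CTXR by 3.88 and up in CabR with a log2 ratio of 3.06. In the docetaxel-resistant lines it stood between, at 6.32 FPKM in DTXR and 30.9 FPKM in TaxR. LMO4, another LIM-only cofactor, had 17.1 FPKM in CTXR and 90.3 FPKM in CabR, against 30.0 FPKM in DU145 and 15.2 FPKM in C4-2B, a gap change of -3.27. CAMK2N1, an inhibitor of calmodulin-dependent kinase II, had 2.02 FPKM in CTXR and 32.6 FPKM in CabR, against 9.59 FPKM in DU145 and 12.7 FPKM in C4-2B, a gap change of -3.10. For LMO4 the gap was absent at the docetaxel stage, with 28.3 FPKM in DTXR and 17.6 FPKM in TaxR. PLA2G2A, a secreted phospholipase, had 16 FPKM in CabR and was listed at 0 in CTXR, and CBLN2, a cerebellin, had 14 FPKM in CabR and was listed at 0 in CTXR and DU145.

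ABCB1, the gene of P-glycoprotein (ENSG00000085563, chromosome 7, 87503633 to 87713323, minus strand, GRCh38), belonged to the same class although both sublines had raised it. It had 94.2 FPKM in CTXR and 936 FPKM in CabR, against 0.304 FPKM in DU145 and 0.259 FPKM in C4-2B. The parental gap was 0.05 and the end-point gap -3.30, a gap change of -3.35. CTXR lay 6.19 above DU145 and CabR 9.54 above C4-2B in log2. The gap was already there at the docetaxel stage, with 68.0 FPKM in DTXR and 526 FPKM in TaxR. Of the 11 measured efflux transporters 1 moved toward CTXR and 2 toward CabR, a share of members near the 23.0% of all measured genes. The median gap change of the list was -0.53, where all measured genes had 0.08. The members besides ABCB1 had lost a parental gap. ABCG2, the breast cancer resistance protein, had 0.477 FPKM in CTXR and 1.02 FPKM in CabR, against 4.75 FPKM in DU145 and 1.10 FPKM in C4-2B. ABCC4, a cyclic nucleotide and prostanoid exporter, had 15.7 FPKM in CTXR and 27.4 FPKM in CabR, against 15.4 FPKM in DU145 and 71.9 FPKM in C4-2B.

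**Figure D3:**
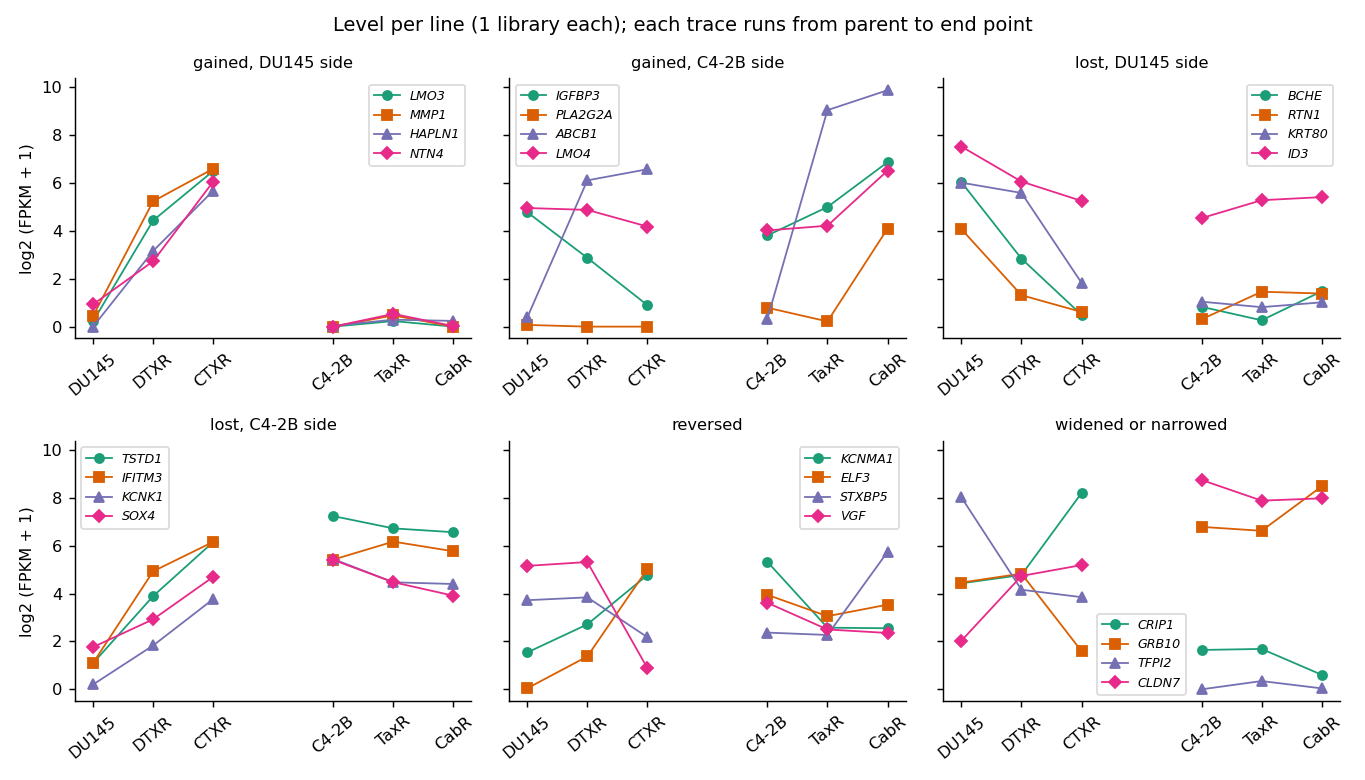
Level, log2(FPKM + 1), of 24 named genes in the 6 lines, 1 library each, from parent to docetaxel-resistant to cabazitaxel-resistant line, with the DU145 lineage on the left of each panel. IGFBP3 runs down in the DU145 lineage and up in the C4-2B lineage, and ABCB1 runs up in both, further in the C4-2B lineage.

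Of the 310 lost DU145-side gaps 109 came with a move of CTXR alone and 60 with a move of CabR alone, and the largest were of genes that had gone down in CTXR. BCHE, butyrylcholinesterase (ENSG00000114200, chromosome 3, 165772904 to 165837472, minus strand, GRCh38), had 0.407 FPKM in CTXR and 1.78 FPKM in CabR, against 64.4 FPKM in DU145 and 0.775 FPKM in C4-2B, a gap change of -6.18. RTN1, a reticulon of the endoplasmic reticulum, had 0.529 FPKM in CTXR and 1.61 FPKM in CabR, against 15.8 FPKM in DU145 and 0.236 FPKM in C4-2B, a gap change of -4.53. The epithelial keratin gene KRT80 had 2.56 FPKM in CTXR and 1.02 FPKM in CabR, against 63.6 FPKM in DU145 and 1.06 FPKM in C4-2B, a gap change of -4.16. For KRT80 the loss was absent at the docetaxel stage, with 46.9 FPKM in DTXR and 0.757 FPKM in TaxR. ID3, an inhibitor of basic helix-loop-helix transcription factors, had 37.1 FPKM in CTXR and 41.5 FPKM in CabR, against 183 FPKM in DU145 and 22.1 FPKM in C4-2B, a gap change of -3.15. IL11, an interleukin, and the zinc finger gene ZNF677 had changes of -3.79 and -3.16. IGF1R, the type 1 insulin-like growth factor receptor, was chosen after its values were seen and had 6.72 FPKM in CTXR and 6.93 FPKM in CabR, against 59.9 FPKM in DU145 and 13.9 FPKM in C4-2B, a gap change of -2.07.

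C4-2B-side gaps were lost from both ends, with a move of CTXR alone in 159 of 503 genes and of CabR alone in 133. TSTD1, a sulfurtransferase gene (ENSG00000215845, chromosome 1, 161037631 to 161038990, minus strand, GRCh38), had 70.1 FPKM in CTXR and 93.5 FPKM in CabR, against 1.13 FPKM in DU145 and 149.7 FPKM in C4-2B, a gap change of 5.73. IFITM3, an interferon-inducible membrane protein that restricts virus entry, had 70.4 FPKM in CTXR and 53.4 FPKM in CabR, against 1.15 FPKM in DU145 and 41.7 FPKM in C4-2B, a gap change of 4.71. In both genes CTXR lay far above DU145, and IFITM3 passed the level of C4-2B while TSTD1 did not reach it. SOX4, a transcription factor of progenitor cells, had 24.9 FPKM in CTXR and 14 FPKM in CabR, against 2.40 FPKM in DU145 and 41.4 FPKM in C4-2B, a gap change of 4.43. The potassium channel gene KCNK1 had 12.6 FPKM in CTXR and 20.1 FPKM in CabR, against 0.150 FPKM in DU145 and 42.4 FPKM in C4-2B, a gap change of 4.61. SOX4 and KCNK1 moved in both sublines, up in CTXR and down in CabR. TSC22D3, the glucocorticoid-induced leucine zipper, had 13.5 FPKM in CTXR and 14.8 FPKM in CabR, against 4.52 FPKM in DU145 and 94.4 FPKM in C4-2B, a gap change of 4.0. STC1, a stanniocalcin, completed the 6 with a gap change of 4.87 and at most 1.54 FPKM at the end points.

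Gaps turned round in 96 genes, with moves of 1 or more in both sublines in 31 of the 67 that turned to the DU145 side and in 11 of the 29 that turned to the C4-2B side. KCNMA1, the pore subunit of the large-conductance calcium-activated potassium channel (ENSG00000156113, chromosome 10, 76869601 to 77638369, minus strand, GRCh38), had 26.3 FPKM in CTXR and 4.86 FPKM in CabR, against 1.91 FPKM in DU145 and 39.1 FPKM in C4-2B, a gap change of 6.01. RBPMS, an RNA-binding protein gene, had 77.3 FPKM in CTXR and 1.69 FPKM in CabR, against 2.22 FPKM in DU145 and 6.02 FPKM in C4-2B, a gap change of 5.99. RASD1, a dexamethasone-induced small GTPase, had 23.5 FPKM in CTXR and 0.347 FPKM in CabR, against 0.141 FPKM in DU145 and 2.48 FPKM in C4-2B, a gap change of 5.79. All 3 had turned to the DU145 side, and RASD1 stayed at 0.257 FPKM in DTXR. On the other side STXBP5, tomosyn, a SNARE-binding regulator of secretion, had 3.53 FPKM in CTXR and 52.4 FPKM in CabR, against 12.2 FPKM in DU145 and 4.17 FPKM in C4-2B, a gap change of -4.91. VGF, a neuropeptide precursor, had 0.853 FPKM in CTXR and 4.11 FPKM in CabR, against 34.7 FPKM in DU145 and 11.2 FPKM in C4-2B, a gap change of -3.01. STXBP5 and VGF both turned at the cabazitaxel step, since DTXR held 13.3 and 38.9 FPKM of them and TaxR 3.82 and 4.66 FPKM. ATG7, an enzyme of autophagy, had 8.77 FPKM in CTXR and 20.2 FPKM in CabR, against 27.7 FPKM in DU145 and 11.1 FPKM in C4-2B.

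Widened gaps added to a lineage difference of the parents. CRIP1, a small LIM-domain protein (ENSG00000213145, chromosome 14, 105486317 to 105488947, plus strand, GRCh38), had 292 FPKM in CTXR and 0.525 FPKM in CabR, against 20.5 FPKM in DU145 and 2.13 FPKM in C4-2B, a gap change of 4.80. GSDMD, the pore-forming protein of pyroptosis, had 86.9 FPKM in CTXR and 0.287 FPKM in CabR, against 6.13 FPKM in DU145 and 0.702 FPKM in C4-2B, a gap change of 4.03. CPM, a membrane carboxypeptidase, had 164 FPKM in CTXR, against 6.06 FPKM in DU145, with a listed 0 in CabR and C4-2B. On the C4-2B side GRB10, an adaptor that binds the insulin and insulin-like growth factor receptors, had 2.02 FPKM in CTXR and 355 FPKM in CabR, against 21.0 FPKM in DU145 and 109 FPKM in C4-2B, a gap change of -4.55. SLC22A3, an organic cation transporter, had 0.0155 FPKM in CTXR and 52.0 FPKM in CabR, against 0.0210 FPKM in DU145 and 1.27 FPKM in C4-2B, a gap change of -4.55. SLC22A3 was at 0.174 FPKM in TaxR, so its high level was seen in CabR alone among the 6 lines. SLPI, a leukocyte protease inhibitor, had 0.340 FPKM in CTXR and 35.1 FPKM in CabR, against 16.4 FPKM in DU145 and 40.6 FPKM in C4-2B.

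Of the 130 narrowed gaps on the DU145 side 83 came with a move of CTXR alone. TFPI2, a protease inhibitor, had 13.4 FPKM in CTXR and 0.0278 FPKM in CabR, against 258 FPKM in DU145 and 0 in C4-2B. CYP24A1, the vitamin D hydroxylase, had 1.21 FPKM in CTXR and 0.0186 FPKM in CabR, against 31.8 FPKM in DU145 and 0 in C4-2B. RSPO3, a secreted potentiator of WNT signalling, had 1.40 FPKM in CTXR, against 33.6 FPKM in DU145, with a listed 0 in CabR and C4-2B. These 3 genes were already low in DTXR, at 16.9, 1.71 and 0.835 FPKM. LPAR3, a lysophosphatidic acid receptor gene on the C4-2B side, had 4.4 FPKM in CTXR and 11.5 FPKM in CabR, against 1.42 FPKM in DU145 and 102 FPKM in C4-2B, a gap change of 4.20.

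Of 21 measured androgen receptor targets 11 moved toward CTXR and none toward CabR, and of these 9 narrowed and 2 lost their C4-2B-side gap. Their median gap change was 1.06, set beside 0.08 for all measured genes, and it was 0.87 after the rescaling without mitochondrial genes. Counts of this and the following lists are set beside 14.1% of all measured genes toward CTXR and 8.95% toward CabR. In CabR 10 of the 21 were lower than in C4-2B by 1 or more and none was higher, and in CTXR 3 were lower than in DU145 and none was higher. SLC45A3, prostein, had 2.37 FPKM in CTXR and 15.3 FPKM in CabR, against 2.67 FPKM in DU145 and 155 FPKM in C4-2B, a gap change of 3.13. KLK3, prostate-specific antigen, had 0.301 FPKM in CTXR and 841 FPKM in CabR, against 0 in DU145 and 3567 FPKM in C4-2B. TaxR still had 3053 FPKM of KLK3, near the level of C4-2B. KLK2 was no member with 936 FPKM in CabR and 515 FPKM in C4-2B, so the 2 kallikreins did not move together. Of 11 measured luminal lineage genes 3 moved toward CTXR, among them FOXA1, a pioneer factor of luminal cells, with 35.7 FPKM in CTXR and 157 FPKM in CabR, against 11 FPKM in DU145 and 145 FPKM in C4-2B.

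Hypoxia and glycolysis genes lost or narrowed their C4-2B-side gap. Hypoxia-inducible factors bind a short core, ACGTG, upstream of genes of glycolysis, blood vessel growth and mitophagy. Of 27 measured genes 18 moved toward CTXR and 1, ADM, toward CabR, with a median gap change of 1.53. Of the 27, 22 were lower in CabR than in C4-2B by 1 or more, and 5 were lower and 2 higher in CTXR than in DU145. The median parental gap of the list was -1.92 and the median end-point gap was -0.66, with -0.62 at the docetaxel stage. VEGFA, the vascular growth factor, had 34.4 FPKM in CTXR and 43.2 FPKM in CabR, against 52.2 FPKM in DU145 and 431 FPKM in C4-2B, a gap change of 2.70. ENO2, an enolase, had 20.2 FPKM in CTXR and 9.84 FPKM in CabR, against 8.19 FPKM in DU145 and 67.3 FPKM in C4-2B, a gap change of 3.86. BNIP3L, a mitophagy receptor, had 81.4 FPKM in CTXR and 33.4 FPKM in CabR, against 38.4 FPKM in DU145 and 137 FPKM in C4-2B, and its gap turned to the DU145 side with a change of 3.06. EGLN3, an oxygen-sensing prolyl hydroxylase, had 4.33 FPKM in CTXR and 4.71 FPKM in CabR, against 2.72 FPKM in DU145 and 26.7 FPKM in C4-2B. PGK1, phosphoglycerate kinase, and BNIP3, a mitophagy receptor, were chosen after their values were seen because their promoters are shown.

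The stretches below come from RefSeq promoters on GRCh38.p14, which hold 250 bases before and 50 bases after each gene start, and the capitals mark ACGTG or its reverse complement CACGT, with overlapping copies merged. PGK1 (chrX:78104028-78104087, plus strand) had 81.9 FPKM in CTXR and 260 FPKM in CabR, against 92.4 FPKM in DU145 and 967 FPKM in C4-2B, and BNIP3 (chr10:131982024-131982073, minus strand) had 18.7 FPKM in CTXR and 114 FPKM in CabR, against 32.6 FPKM in DU145 and 439 FPKM in C4-2B.
PGK1: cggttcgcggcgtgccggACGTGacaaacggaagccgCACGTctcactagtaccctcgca
BNIP3: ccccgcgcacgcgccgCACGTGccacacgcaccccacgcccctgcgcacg
The core was in 10 of the 16 members of the list with a promoter in the table and in 1 of 7 measured genes of the list that were no members, against 21.6% of 27305 promoters. The list was chosen as hypoxia and glycolysis genes, so a high share is a property of the list. With 16 and 7 genes the difference between members and other genes was not tested. A match in letters is a description of the sequence and not a bound site.

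Interferon-stimulated genes moved toward CTXR. Interferon signalling induces genes through a response element in their promoters, whose core was searched as GAAA, any 2 bases and GAAA again. Of 28 measured genes 16 moved toward CTXR and none toward CabR, with a median gap change of 1.47, and 13 of the 28 were higher in CTXR than in DU145 by 1 or more while 1 was higher and 3 were lower in CabR than in C4-2B. IFITM2, a paralog of IFITM3 whose reads may be shared with it, had 173 FPKM in CTXR and 27.0 FPKM in CabR, against 6.61 FPKM in DU145 and 40.9 FPKM in C4-2B, a gap change of 5.10. IFI6 had 43.8 FPKM in CTXR and 15.2 FPKM in CabR, against 6.43 FPKM in DU145 and 29 FPKM in C4-2B, a gap change of 3.47. IFI35 had 34.1 FPKM in CTXR and 0.989 FPKM in CabR, against 7.42 FPKM in DU145 and 3.04 FPKM in C4-2B, a gap change of 3.08. The 2 lineages thus began with IFITM2 and IFI6 higher in C4-2B and ended with them higher in CTXR. With a pseudocount of 5 the median of the list was 0.66.

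MHC class I presentation genes moved the same way, from both ends. Class I molecules show peptides cut by the immunoproteasome and carried by the TAP transporter. Of 17 measured genes 11 moved toward CTXR and none toward CabR, with a median gap change of 1.49, and 5 were higher in CTXR than in DU145 while 5 were lower in CabR than in C4-2B. B2M, the light chain of class I molecules (ENSG00000166710, chromosome 15, 44711487 to 44718877, plus strand, GRCh38), had 1526 FPKM in CTXR and 171 FPKM in CabR, against 454 FPKM in DU145 and 289 FPKM in C4-2B, a gap change of 2.50. PSMB8, an immunoproteasome subunit, had 25.9 FPKM in CTXR and 0.737 FPKM in CabR, against 0.997 FPKM in DU145 and 0.125 FPKM in C4-2B, a gap change of 3.13. In those 2 genes the move was in CTXR. In the heavy chains it was in CabR, where HLA-B had 17.3 FPKM, against 64.1 FPKM in C4-2B, while CTXR had 224 FPKM and DU145 169 FPKM. HLA-C had 225 FPKM in CTXR and 53.3 FPKM in CabR, against 128 FPKM in DU145 and 161 FPKM in C4-2B. Reads of the HLA genes are shared between paralogs and differ from the reference by allele, so their levels are uncertain.

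Stretches of 4 RefSeq promoters of these members on GRCh38.p14 are shown with that core, on either strand, in capitals and overlapping copies merged. ISG15 (chr1:1013357-1013416, plus strand), a ubiquitin-like modifier, had 56.4 FPKM in CTXR and 83.2 FPKM in CabR, against 7.35 FPKM in DU145 and 66.5 FPKM in C4-2B. IFIT1 (chr10:89392493-89392543, plus strand), which binds foreign RNA, had 5.31 FPKM in CTXR and 0.843 FPKM in CabR, against 0.835 FPKM in DU145 and 0.727 FPKM in C4-2B, and like ISG15 it was chosen after its values were seen. The others are IFI6 (chr1:27672273-27672352, minus strand) and B2M (chr15:44711357-44711416, plus strand).
ISG15: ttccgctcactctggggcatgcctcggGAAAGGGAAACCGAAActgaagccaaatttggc
IFIT1: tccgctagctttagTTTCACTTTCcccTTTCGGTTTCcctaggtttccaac
IFI6: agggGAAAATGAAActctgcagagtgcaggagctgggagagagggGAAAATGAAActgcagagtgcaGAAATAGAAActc
B2M: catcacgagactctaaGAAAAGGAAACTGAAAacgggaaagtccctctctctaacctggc
The core was in 11 of 13 interferon list members with a promoter in the table and in 4 of 9 measured genes of that list that were no members. In the class I list it was in 4 of 9 members and in 3 of 4 other measured genes, against 3.65% of all 27305 promoters. Both lists were chosen as interferon or immune genes, so a high share is a property of the lists.

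Metallothioneins, small cysteine-rich proteins that bind zinc and copper, moved toward CTXR. Of 9 measured genes of the list, which includes the zinc exporter SLC30A1, 8 moved toward CTXR and none toward CabR, with a median gap change of 2.92. Of the 8, 3 gained a gap and 2 widened one, while 2 narrowed and 1 lost a C4-2B-side gap, so these 3 came closer between the end points. The move lay mainly in CabR, where 6 of the 9 were lower than in C4-2B by 1 or more. MT2A had 4175 FPKM in CTXR and 338 FPKM in CabR, against 4383 FPKM in DU145 and 5793 FPKM in C4-2B, a gap change of 4.03. MT1X had 2010 FPKM in CTXR and 142 FPKM in CabR, against 2715 FPKM in DU145 and 2881 FPKM in C4-2B, a gap change of 3.90. Both differed by less than 1 in log2 between the parents and between CTXR and DU145, and both were already low in TaxR, with 109 FPKM of MT2A and 143 FPKM of MT1X. MT1B had 347 FPKM in C4-2B and 2.46 FPKM in CabR, against 1.38 FPKM in DU145, with a listed 0 in CTXR. MT1A was raised in CTXR, with 37.7 FPKM against 1.40 FPKM in DU145, with a listed 0 in CabR and C4-2B. MT1E was the measured gene that did not move, with 1718 FPKM in CTXR and 0.577 FPKM in CabR, against 1726 FPKM in DU145 and 0 in C4-2B. These paralogs lie side by side on chromosome 16 and share sequence, so the division of reads among them is uncertain.

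Metallothionein promoters hold metal response elements whose core was searched as TGCACNC or TGCGCNC on either strand. The capitals mark them in MT1X (chr16:56682310-56682416, plus strand) and MT1B (chr16:56651686-56651841, plus strand), RefSeq promoters on GRCh38.p14.
MT1X: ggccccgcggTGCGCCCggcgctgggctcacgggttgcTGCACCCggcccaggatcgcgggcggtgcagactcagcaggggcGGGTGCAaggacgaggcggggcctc
MT1B: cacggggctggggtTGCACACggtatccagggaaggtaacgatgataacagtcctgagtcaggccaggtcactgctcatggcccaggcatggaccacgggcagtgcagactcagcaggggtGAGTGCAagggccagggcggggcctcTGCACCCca
All 4 members of the list with a promoter in the table held the core, as did 29.3% of all 27305 promoters. The list was chosen as metallothionein and zinc export genes, so a high share is a property of the list.

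**Figure D4:**
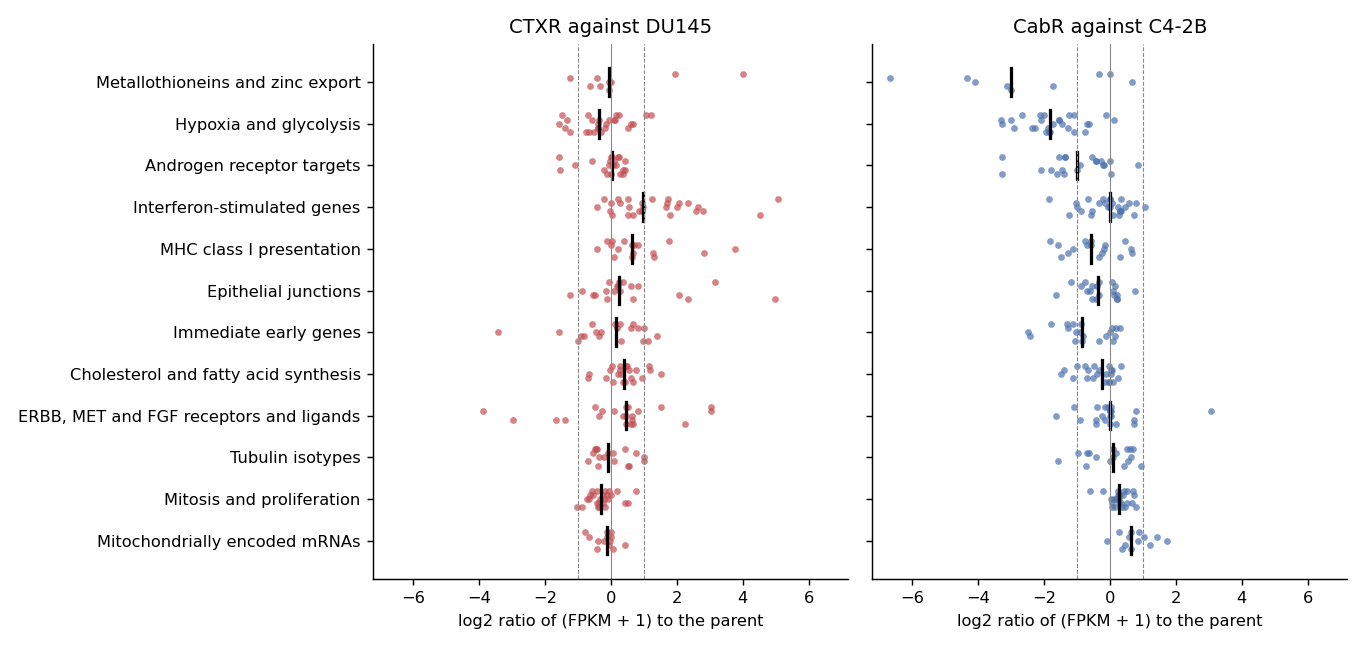
Log2 ratio of (FPKM + 1) of each measured gene of 12 lists in CTXR over DU145 (left) and CabR over C4-2B (right), with a bar at the list median and dashed lines at 1 and -1. The medians of the metallothionein, hypoxia and androgen receptor target lists lie left of 0 in CabR, and that of the interferon-stimulated genes lies right of 0 in CTXR.

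Some epithelial junction genes came closer between the end points. Of 20 measured genes 8 moved toward CTXR and none toward CabR, with a median gap change of 0.49. The median move of the list was 0.24 in CTXR over DU145 and -0.36 in CabR over C4-2B, and 4 genes were higher and 1 lower in CTXR by 1 or more while 2 were lower in CabR. ELF3, an epithelial ETS transcription factor (ENSG00000163435, chromosome 1, 202007945 to 202017188, plus strand, GRCh38), had 31.5 FPKM in CTXR and 10.6 FPKM in CabR, against 0.0303 FPKM in DU145 and 14.4 FPKM in C4-2B, a gap change of 5.39. The tight junction gene CLDN7 had 35.5 FPKM in CTXR and 251 FPKM in CabR, against 3.08 FPKM in DU145 and 428 FPKM in C4-2B, a gap change of 3.93. CLDN4 had 17.7 FPKM in CTXR and 160 FPKM in CabR, against 2.67 FPKM in DU145 and 235 FPKM in C4-2B, a gap change of 2.90. CLDN3 had 109 FPKM in CTXR and 90.1 FPKM in CabR, against 25.1 FPKM in DU145 and 114 FPKM in C4-2B, a gap change of 2.42. These 4, the largest changes of the list, were all higher in CTXR than in DU145. CDH1, E-cadherin, chosen after its values were seen, stayed at 0.880 FPKM in CTXR and had 94.5 FPKM in CabR, against 0.576 FPKM in DU145 and 214 FPKM in C4-2B, a gap change of 1.43 that came from CabR.

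Matrix, growth factor and WNT genes moved both ways, while NF-kB targets and cytokines moved more often toward CTXR. Counts of these lists are read against the 14.1% of all measured genes that moved toward CTXR and the 8.95% toward CabR. Of 17 measured matrix and integrin genes 5 moved toward CTXR and 4 toward CabR. FN1, fibronectin, had 4.28 FPKM in CTXR and 854 FPKM in CabR, against 2.12 FPKM in DU145 and 71.7 FPKM in C4-2B, a gap change of -2.80. LAMA3, a laminin chain, had 38.2 FPKM in CTXR and 25.3 FPKM in CabR, against 3.24 FPKM in DU145 and 43.2 FPKM in C4-2B, a gap change of 3.96. The 6 fibroblast markers summed to 14.1 FPKM in CTXR and 6.26 FPKM in CabR, against 4.55 FPKM in DU145 and 13 FPKM in C4-2B, and their part in these values was not tested. LGALS1, galectin-1, was of the list of mesenchymal genes and not of the matrix list. It had 864 FPKM in CTXR and 2.28 FPKM in CabR, against 233 FPKM in DU145 and 7.08 FPKM in C4-2B, a gap change of 3.18. So fibronectin widened a C4-2B-side gap, laminin lost one and galectin widened a DU145-side one. Of 22 measured genes of the ERBB, MET and FGF list, which also holds insulin-like growth factor genes, 7 moved toward CTXR and 4 toward CabR. AREG, amphiregulin, a ligand of the epidermal growth factor receptor, had 96.5 FPKM in CTXR and 0.0843 FPKM in CabR, against 10.9 FPKM in DU145 and 0.0539 FPKM in C4-2B, a gap change of 2.99. EREG, epiregulin, had 75 FPKM in CTXR, against 8.32 FPKM in DU145, and none was listed in CabR or C4-2B. Of 20 measured WNT genes 5 moved toward CTXR and 4 toward CabR. LGR4, a receptor of R-spondins, had 69.4 FPKM in CTXR and 5.52 FPKM in CabR, against 3.27 FPKM in DU145 and 6.56 FPKM in C4-2B, a gap change of 4.26. The chemokine gene CXCL5 had 28.1 FPKM in CTXR and 0.0266 FPKM in CabR, against 0.0864 FPKM in DU145 and 0.103 FPKM in C4-2B, and its list of NF-kB targets and cytokines had 7 of 18 genes toward CTXR and 2 toward CabR.

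Stress, lipid and immediate early genes are read against the 14.1% of all measured genes that moved toward CTXR and the 8.95% that moved toward CabR. Of 20 measured immediate early genes 8 moved toward CTXR and 3 toward CabR, and 8 were lower in CabR than in C4-2B by 1 or more. FOS had 14 FPKM in CTXR and 0.589 FPKM in CabR, against 4.75 FPKM in DU145 and 7.56 FPKM in C4-2B, a gap change of 3.81. IER3 ran the other way, with 24.6 FPKM in CTXR and 0.319 FPKM in CabR, against 275 FPKM in DU145 and 0.309 FPKM in C4-2B, a gap change of -3.44. Of 22 cholesterol and fatty acid synthesis genes 8 moved toward CTXR and none toward CabR, with a median gap change of 0.70. INSIG1, a sterol sensor partner, had 20.1 FPKM in CTXR and 169 FPKM in CabR, against 16.3 FPKM in DU145 and 471 FPKM in C4-2B, a gap change of 1.77. FASN, fatty acid synthase, had 75.2 FPKM in CTXR and 433 FPKM in CabR, against 61.9 FPKM in DU145 and 1147 FPKM in C4-2B, a gap change of 1.68. Of 24 genes of the ATF4 and unfolded protein response 7 moved toward CTXR and 3 toward CabR. VLDLR, a lipoprotein receptor, had 9.26 FPKM in CTXR and 5.00 FPKM in CabR, against 5.35 FPKM in DU145 and 21.6 FPKM in C4-2B. Of 20 genes of the NRF2 and glutathione list 6 moved toward CTXR and 5 toward CabR. GPX1, a glutathione peroxidase, had 71.9 FPKM in CTXR and 238 FPKM in CabR, against 0.543 FPKM in DU145 and 186 FPKM in C4-2B, and its DU145 value stands alone among the 6 lines, the others having 64.3 FPKM or more. FTL, ferritin light chain, had 416 FPKM in CTXR and 276 FPKM in CabR, against 3631 FPKM in DU145 and 388 FPKM in C4-2B, a gap change of -2.63.

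Member counts among genes of the drug target and of cell division were small, and the share of members differed between their lists. For tubulins that share was not below the 23.0% of all measured genes. Of all measured genes 14.1% moved toward CTXR and 8.95% toward CabR. Of 17 measured tubulin genes 3 moved toward CTXR and 2 toward CabR, with a median gap change of -0.11. TUBB3, class III beta-tubulin, had 43.6 FPKM in CTXR and 6.74 FPKM in CabR, against 41.1 FPKM in DU145 and 22.1 FPKM in C4-2B, a gap change of 1.66 that came from CabR. TUBA4A had 2.76 FPKM in CTXR and 136 FPKM in CabR, against 5.12 FPKM in DU145 and 92.8 FPKM in C4-2B, a gap change of -1.25. No tubulin lay 1 or more from its parent in CTXR, and 1 did in CabR. Of 26 mitosis and proliferation genes none moved toward CTXR and 3 toward CabR, with a median gap change of -0.52. BUB1B, a spindle checkpoint kinase, had 18.7 FPKM in CTXR and 30.4 FPKM in CabR, against 35.4 FPKM in DU145 and 21.7 FPKM in C4-2B, a gap change of -1.36. MKI67, the proliferation marker, had 19.5 FPKM in CTXR and 20.2 FPKM in CabR, against 40.8 FPKM in DU145 and 19.3 FPKM in C4-2B, a gap change of -1.09. Of 22 microtubule-associated genes 2 moved toward CTXR and 3 toward CabR. Of 13 mitochondrially encoded messenger RNAs none moved toward CTXR and 6 toward CabR, with a median gap change of -1.0. MT-ND1 had 18473 FPKM in CTXR and 10015 FPKM in CabR, against 18605 FPKM in DU145 and 3755 FPKM in C4-2B, a gap change of -1.43. The remaining lists had 1 to 10 members toward CTXR and 0 to 4 toward CabR each, apart from the leukocyte and endothelial list, which had no measured gene. Their shares differed widely. Of 17 measured ABCB1 neighbours 10 moved toward CTXR and 2 toward CabR, and of 28 apoptosis regulators 7 and 2 did. Of 8 neuroendocrine genes 1 moved toward CTXR and 2 toward CabR, and of 14 androgen synthesis genes 1 and 4 did.

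The share of members differed between chromosomes. On chromosome 7, 130 of 596 measured protein-coding genes (21.8%) moved toward CabR, against 8.44% of all measured protein-coding genes, and 55 (9.23%) moved toward CTXR, against 13%. The median gap change of the chromosome was -0.40, made of -0.19 in CTXR over DU145 and 0.23 in CabR over C4-2B. The shift was not even along the chromosome. The stretch from 80 to 90 Mb, which holds ABCB1, ran the other way furthest, with 11 of 16 genes toward CTXR and a median gap change of 1.91. From 60 to 70 Mb 3 of 19 genes moved toward CTXR and 0 toward CabR, with a median of 0.38. From 70 to 80 Mb 9 of 52 moved toward CTXR and 2 toward CabR, with a median of 0.25. Without the stretch from 80 to 90 Mb 127 of 580 genes (21.9%) moved toward CabR. Chromosome 4 had 20.3% of its genes toward CTXR and chromosome 8 had 19.5%.

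**Figure D5:**
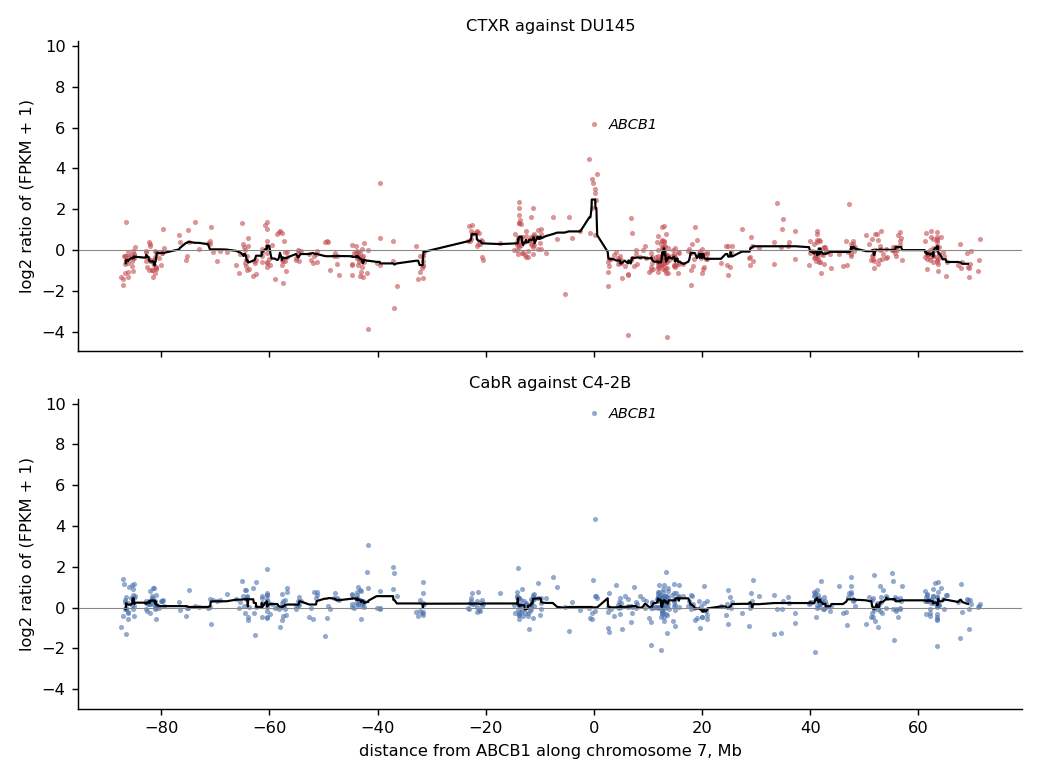
Log2 ratio of (FPKM + 1) of each measured protein-coding gene of chromosome 7 by distance from ABCB1 in Mb, in CTXR over DU145 (top) and CabR over C4-2B (bottom), with a running median of 15 genes. A block of genes around ABCB1 is raised in CTXR. In CabR ABCB1 and the overlapping RUNDC3B are the high points, and the nearby CROT is raised by 1.34.

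Adjacent members formed 4 runs, taken as stretches where 8 or more of 10 neighbouring measured protein-coding genes moved one way. On chromosome 7, 10 of 12 genes from SEMA3D to SRI (84995553 to 88226993, GRCh38) moved toward CTXR, 8 of them with a move of CTXR, and ABCB1 and RUNDC3B in its middle moved toward CabR. TMEM243 had 196 FPKM in CTXR and 14.3 FPKM in CabR, against 16.8 FPKM in DU145 and 21.8 FPKM in C4-2B, a gap change of 4.04. GRM3, a glutamate receptor gene, had 21.1 FPKM in CTXR and was listed at 0 in CabR, DU145 and C4-2B. RUNDC3B, which overlaps ABCB1 on the other strand, had 4.48 FPKM in CTXR and 20.4 FPKM in CabR, against 2.30 FPKM in DU145 and 0.0679 FPKM in C4-2B, and since the use of strand in counting is not given its level is uncertain. On chromosome 19, 13 of 17 genes from ZNF880 to ZNF525 (52369917 to 53392217) moved toward CabR, 11 of them with a fall of CTXR. ZNF28, a member named after its values were seen, had 0.00898 FPKM in CTXR and 20.5 FPKM in CabR, against 2.79 FPKM in DU145 and 7.07 FPKM in C4-2B. The 17 are all zinc finger genes. In DTXR, ZNF28 stood at 3.88 FPKM, and the median gap of the run between DTXR and TaxR was -0.12. On chromosome 16, 8 of 10 genes from MT2A to HERPUD1 (56608199 to 56944863) moved toward CTXR, 6 of them with a fall of CabR, and on chromosome 1, 8 of 10 genes from EFNA4 to THBS3 (155063731 to 155209051) did so by smaller moves. MUC1, an epithelial mucin in that last run named after its values were seen, had 36.7 FPKM in CTXR and 2.86 FPKM in CabR, against 14.1 FPKM in DU145 and 6.54 FPKM in C4-2B. Neighbouring zinc finger genes and metallothioneins are paralogs with shared sequence, so single values in those runs are uncertain.

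The docetaxel stage gave a pair of libraries that the rule did not use. DTXR was higher than TaxR by 1 or more in 2951 measured genes (18.6%) and lower in 2845 (18.0%). Of the 838 gaps gained on the DU145 side 322 (38.4%) stood at 1 or more in the same direction between DTXR and TaxR, and of the 518 gained on the C4-2B side 190 (36.7%) did. A gap was thus under 1 at that stage in 508 and 319 of them. Of the 310 DU145-side gaps lost at the end points 116 (37.4%) were still at 1 or more between DTXR and TaxR, and of the 503 lost on the C4-2B side 180 (35.8%) were. CTXR and CabR were derived from DTXR and TaxR, so the stages share cell history, and the trace of DU145-side markers in TaxR given above touches DU145-side gaps at that stage. Over all 15846 genes the end-point gap and the DTXR to TaxR gap had a Pearson correlation of 0.835 and a Spearman correlation of 0.794.

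Members just inside the threshold and genes just outside it had like values. SLC39A10, a zinc importer with 14.9 FPKM in CTXR and 9.88 FPKM in CabR, against 16.6 FPKM in DU145 and 23.1 FPKM in C4-2B, was just inside, as was PAXIP1, with 8.5 FPKM in CTXR and 13.7 FPKM in CabR, against 14.7 FPKM in DU145 and 11.1 FPKM in C4-2B. PSME2, a proteasome activator subunit with 47.0 FPKM in CTXR and 37.7 FPKM in CabR, against 16.6 FPKM in DU145 and 27.3 FPKM in C4-2B, was just outside. NECTIN1, an adhesion molecule with 11.4 FPKM in CTXR and 12.1 FPKM in CabR, against 6.61 FPKM in DU145 and 15.1 FPKM in C4-2B, was just outside too.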

How the data were processed

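Poly(A) RNA of 6 cell lines, 1 stranded library each, was measured. The authors deposited FPKM values for 60658 Ensembl identifiers, made with HISAT, StringTie and Cuffnorm on GRCh38, per the submitters' processing notes; versions, annotation and the use of strand are not given. The deposited FPKM values were used unscaled, as log2(FPKM + 1), over genes at 1 FPKM or more in CTXR or CabR. With 1 library per line no test was possible: calls are by size, 1 or more in log2, and depth and counting error are unknown. Genes were placed with GENCODE 29, which held 57047 of the identifiers, and named from a symbol table that held 56550. The members, the 32 gene lists and the rule were chosen with earlier results of these data known. Named genes were protein-coding members at 10 FPKM or more in 1 of the 4 lines with the largest gap changes per class (6 for gained and lost, 4 for reversed, 3 for widened and narrowed, per side) and up to 4 per list, with ABCB1 and the genes next to the threshold. Other names are said to be chosen after their values were seen, which also holds for KLK2, MT1E and ADM. The calculation was tested on simulated data. Alternatives changed the pseudocount, filter, scaling, gene type and end point. Values were computed in Python 3.11.15 with pandas 2.3.3 on numpy 2.4.6, correlations with scipy 1.17.1, and figures were drawn in matplotlib 3.10.9.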

Additional observations from a re-analysis of the deposited data

Results flagged for a closer look

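In 18 of the 3647 members, out of 15846 measured genes, both resistant sublines of one lineage lay 1 or more in log2 above their parent. In the same genes both sublines of the other lineage lay 1 or more below theirs. Such moves of CTXR and CabR make a gene a member by the rule, and the sublines of a lineage share descent. In 13 of the 18 genes the DU145 sublines were the higher ones and in 5 the C4-2B sublines were. With 1 library per line the difference was not tested. Of the 6 that are named above, IGFBP3 had a gap change of -6.94 and RTN1 of -4.53, both lower in DTXR and CTXR and higher in TaxR and CabR. KCNMA1 had a gap change of 6.01, RBPMS of 5.99, LPAR3 of 4.20 and ENO2 of 3.86, all higher in DTXR and CTXR and lower in TaxR and CabR. IGFBP3 moved further at each step, with DTXR at -1.91 and CTXR at -3.88 relative to DU145 in log2, and TaxR at 1.19 and CabR at 3.06 relative to C4-2B. KCNMA1 had nearly its whole fall in the C4-2B lineage by the docetaxel stage, with log2 ratios of -2.75 in TaxR and -2.77 in CabR.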

How the results depend on the processing

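None of the 148 genes named by rule changed direction under those of the 10 alternatives in which it was measured. With a minimum of 5 FPKM 123 of them were measured. Genes chosen after their values were seen were not run under the alternatives. The balance of members did turn under the rescaling without mitochondrial genes, to 1822 toward CTXR and 1927 toward CabR, and the median gap change of all genes turned to -0.09. It did not turn with median-ratio size factors, 2241 and 1422, or with equal upper quartiles, 2078 and 1581. The medians of 6 lists, all under 1 in size, changed sign under 1 or more alternatives, such as that of tubulins, -0.11, to 0.11 with no minimum, and that of basal epithelium, -0.03, to 0.52 with a minimum of 5 FPKM. Counts that follow give the DU145 side first and then the C4-2B side. A pseudocount of 5 left 1007 members toward CTXR and 530 toward CabR, with 345 and 146 gaps gained, 131 and 295 lost, 75 and 27 widened, 39 and 102 narrowed, 13 and 2 reversed, and 177 and 185 shifted. A pseudocount of 0.1 gave 2131 members toward CabR, with 730 and 334 gaps widened, 327 and 413 narrowed, and 163 and 89 reversed. A minimum of 5 FPKM in CTXR or CabR gave 1452 members toward CTXR, with 433 and 321 gaps gained, 38 and 9 reversed, and on the DU145 side 200 lost, 85 narrowed and 185 shifted. A minimum of 1 FPKM in any of the 4 lines gave 512 and 749 lost gaps, and no minimum gave 512 on the DU145 side. Rescaling without mitochondrial genes gave 517 and 347 lost gaps, which turns round the order of the sides, and 45 reversed to the C4-2B side. Protein-coding genes alone gave 558 gaps gained on the DU145 side, and 44 and 9 reversed. With the mean of both resistant sublines as the end point, 921 members moved toward CabR, with 491 and 260 gaps gained, 36 and 9 reversed, 169 widened on the DU145 side and 186 shifted on the C4-2B side. The cause was not tested. Of 148 named genes 27 fell under the threshold with a pseudocount of 5 and 26 with the mean of both sublines. The median of androgen receptor targets was 0.99 with equal upper quartiles and 0.96 with the mean of both sublines, and that of interferon-stimulated genes was 0.97 with that mean and 0.94 with no minimum. No paired analysis was possible because each line has 1 library and no test was run. Depth is unknown, so differences among low values cannot be given a precision.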

Other observations

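A few MHC class II genes, in no list and chosen after their values were seen, are given as values. They are no count of the class. HLA-DMA, a class II peptide-loading factor, had 60.9 FPKM in CTXR and 1.81 FPKM in CabR, against 17.9 FPKM in DU145 and 10.4 FPKM in C4-2B, a gap change of 3.73. HLA-DQB1 had 21.4 FPKM in CTXR and 0.262 FPKM in CabR, against 10.6 FPKM in DU145 and 0.817 FPKM in C4-2B, a gap change of 1.47. HLA-DRB1 had 16.8 FPKM in CTXR, against 2.56 FPKM in DU145, and a listed 0 in CabR and C4-2B. The leukocyte and endothelial markers were all under 1 FPKM in CTXR and CabR.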
